A study of Mus musculus with 16 samples.

Results

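The genes described here are 47 genes of the extracellular matrix, given as a list of elastic fiber, collagen and matrix genes. All 47 were found among the 25054 entries of the deposited count table, each on a single entry and with a count in every library. The list holds 12 elastic fiber genes, 3 crosslinking enzymes, 5 fibrillar collagen chains, 10 basement membrane genes, 5 chains of other collagens, 4 matrix glycoproteins, 4 proteoglycans and 4 genes of matrix turnover. The libraries came from lung and liver of newborn mouse pups on the C57BL/6J background. Their parents carried 1 deletion allele of *Man1a2*, an alpha-mannosidase of the Golgi that trims N-glycans. The parents received N-acetyl cysteine (NAC, up to 1 g/kg), an antioxidant, or water as placebo from a week before mating until delivery. The 4 pup groups were wild-type (WT) and heterozygous pups that lived, and heterozygous and null pups that died. For each group, treatment and labelled tissue there is 1 library, made from the pooled RNA of 3 experiments (2 for dead heterozygous pups), which makes 16 libraries. Dead pups were harvested when found within 24 h and live pups at the end of that period, so that survival and age at harvest cannot be told apart.

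Elastic fibers are built by depositing elastin on a scaffold of fibrillin microfibrils, with fibulins as bridges and lysyl oxidases as the enzymes that crosslink elastin and collagen. They let the lung recoil, and much of the elastin of the mouse lung is laid down around birth and during alveolar septation. Basement membranes are sheets of type IV collagen, laminin and nidogen under epithelia and around capillaries, whereas fibrillar collagens give tensile strength. In the liver the matrix is sparse along the sinusoids, stellate cells and portal fibroblasts make most of the collagen, and hepatocytes secrete plasma fibronectin.

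The labelled tissue did not always match the RNA. By 2 marker genes outside the list, 7 libraries had lung content (*Sftpc*, a surfactant protein of alveolar type 2 cells, from 4446 to 11758 raw counts per 1e+06 counts (CPM), and *Alb*, the albumin of hepatocytes, from 10.5 to 135), and 8 had liver content (*Sftpc* at most 3.10 and *Alb* at least 51003 CPM). The last library, labelled dead null placebo lung, was mixed, with 5553 CPM of *Sftpc* and 9280 CPM of *Alb*. Content matched the labelled tissue in 7 libraries and was that of the other tissue in 8. The lung-content libraries were those of live WT, live heterozygous and dead heterozygous pups with NAC (n = 3) and of the same pup groups plus dead null pups with placebo (n = 4). The liver-content libraries were the same 3 pup groups with NAC and with placebo, and both dead null libraries with NAC (5 NAC and 3 placebo). Hence no dead null library with NAC had lung content, and none with placebo had liver content. The ribosomal RNA gene *Rn45s* took from 4.05% to 26.2% of the counts with lung content and from 0.845% to 6.29% with liver content. Lung-content libraries held from 7236865 to 11808823 counts and liver-content libraries from 14115802 to 16107749. *Man1a2*, whose deleted exon was not counted apart, had from 41.4 to 75.4 TMM-scaled CPM in lung-content and from 29.7 to 51.9 in liver-content libraries, and the dead null libraries lay among the others. Levels below are TMM-scaled CPM over the 16 libraries unless they are given per kilobase of exon.

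Matrix genes set the contents apart more than most genes did. Between lung-content (n = 7) and liver-content (n = 8) libraries, 46 of the 47 genes passed edgeR's quasi-likelihood test at an adjusted p under 0.05, 43 of them higher with lung content and 3 lower, where 75.6% of all 14175 genes tested passed (36.1% higher and 39.5% lower). The median log2FC of the list was 2.68, against -0.065 over all genes. The lowest lung-content library lay above the highest liver-content library for 37 genes (23.6% of all genes did so), the reverse held for 2 genes (26.3% of all genes), and the ranges overlapped for 8, where 49.9% of all genes had ranges that did not overlap. Bulk RNA cannot tell fewer cells of a type from less RNA per cell, and markers of other cell types moved with content. The 8 fibroblast markers summed to 516 to 727 CPM in lung-content and 41.0 to 57.95 in liver-content libraries, the 6 endothelial markers to 1329 to 1785 and 144 to 243, and the 6 hepatic stellate markers to 24.7 to 38.9 and 110 to 193. No marker of these 3 lists was at 0 in every library of either content, and their part in the differences was not tested.

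**Figure D1:**
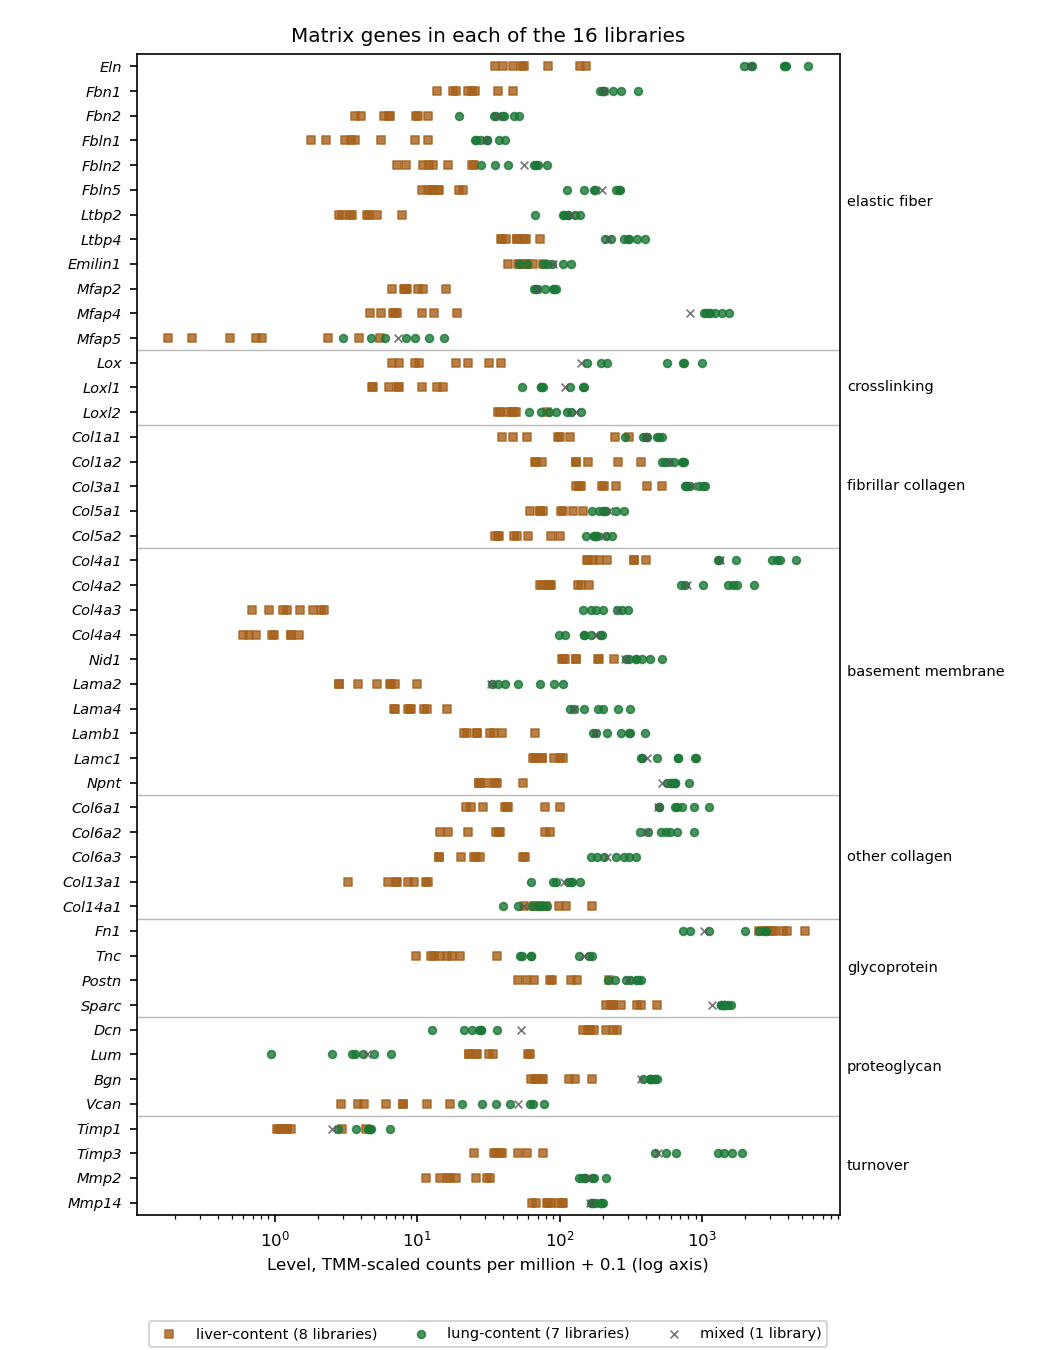
Level of each of the 47 matrix genes (rows, grouped by role) in each library, in TMM-scaled CPM plus 0.1 on a log axis; circles are the 7 lung-content, squares the 8 liver-content libraries and the cross the mixed library. Most rows show the circles to the right of the squares without overlap (37 genes), whereas *Dcn* and *Lum* show the reverse.

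All 12 elastic fiber genes were higher with lung content. *Eln*, which encodes elastin, had 5528, 3763 and 3826 CPM in the NAC libraries of live WT, live heterozygous and dead heterozygous pups and 2227, 1951, 2215 and 3897 CPM in the placebo libraries, dead null last. In liver-content libraries its level was 35.1 at the lowest, 54.9 at the median and 153 at the highest. No lung-content library came near that range, and the log2FC was 5.48 ± 0.40 (SE, adjusted p = 1.0e-09). The microfibril-associated glycoprotein gene *Mfap4* ranged from 1028 to 1540 CPM with lung content and from 4.53 to 19.0 with liver content, a log2FC of 7.07 ± 0.32 (adjusted p = 2.4e-12), the highest of the group. *Fbn1*, which encodes the main fibrillin of microfibrils, ranged from 192 to 354 and from 13.7 to 47.2 CPM (log2FC 3.22 ± 0.25, adjusted p = 2.0e-09). The smallest difference was that of *Emilin1*, a glycoprotein at the surface of elastic fibers, with a log2FC of 0.55 ± 0.17 (adjusted p = 0.0070), and here the ranges overlapped, from 51.3 to 119 and from 43.3 to 75.6 CPM. *Mfap5* had as little as 1 count in a library, and its ranges overlapped too.

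The 3 crosslinking enzymes were all higher with lung content, by unequal amounts. *Lox*, which encodes lysyl oxidase, ranged from 156 to 998 CPM with lung content and from 6.51 to 38.8 with liver content (log2FC 4.85 ± 0.52, adjusted p = 1.8e-07). For *Loxl1*, the paralog linked to elastin, the log2FC was 3.51 ± 0.30, and for *Loxl2*, which acts largely on collagen IV, 1.03 ± 0.19 with overlapping ranges.

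Fibrillar collagen chains differed less. *Col1a1*, a chain of type I collagen, ranged from 287 to 523 CPM with lung content and from 39.2 to 307 with liver content, so that the ranges overlapped, and its log2FC was 1.78 ± 0.38 (adjusted p = 4.2e-04). *Col3a1*, the type III chain, ranged from 760 to 1054 and from 130 to 518 CPM (log2FC 1.85 ± 0.28, adjusted p = 1.2e-05). The median log2FC was 1.78 over the 5 fibrillar chains, 2.87 over the elastic fiber genes and 3.63 over the basement membrane genes.

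Basement membrane genes held the widest difference of the list. *Col4a4* and *Col4a3*, chains of the collagen IV network of alveolar and glomerular basement membranes, ranged from 99.3 to 198 and from 146 to 301 CPM with lung content, and from 0.503 to 1.39 and from 0.594 to 2.13 CPM with liver content. Their log2FC values were 7.41 ± 0.24 (adjusted p = 8.4e-14) and 7.33 ± 0.28 (adjusted p = 2.7e-13). *Col4a1*, a chain of the collagen IV network that most basement membranes share, ranged from 1296 to 4554 and from 155 to 400 CPM (log2FC 3.49 ± 0.33, adjusted p = 3.0e-08). Liver content thus kept readily counted *Col4a1*, while *Col4a3* stood near 1 CPM. *Npnt*, an integrin ligand of epithelial basement membranes, had a log2FC of 4.29 ± 0.17, and *Nid1*, the nidogen that links laminin to collagen IV, had the smallest of the group, 1.35 ± 0.20. All 10 genes of the group were higher with lung content, none with overlapping ranges.

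The other collagen chains and the turnover genes were higher with lung content with 1 exception. The type VI chains *Col6a1*, *Col6a2* and *Col6a3* had log2FC values of 3.94, 3.82 and 3.07. *Timp3*, an inhibitor of metalloproteinases that binds to the matrix, ranged from 466.4 to 1897 and from 25.1 to 76.2 CPM (log2FC 4.68 ± 0.35, adjusted p = 1.4e-09). *Mmp2*, a gelatinase, had a log2FC of 2.99 ± 0.21 (adjusted p = 9.2e-10) and *Timp1*, a soluble inhibitor at no more than 6.36 CPM in any library of either content, 1.42 ± 0.34 (adjusted p = 0.0010). The ranges of *Timp1* overlapped, from 2.67 to 6.36 and from 0.931 to 4.26 CPM. The exception was *Col14a1*, a fibril-associated collagen, with a log2FC of -0.45 ± 0.22 that did not pass (adjusted p = 0.074).

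Only 3 genes were lower with lung content. The small leucine-rich proteoglycans *Lum* and *Dcn*, which bind collagen fibrils, ranged from 0.836 to 6.46 and from 12.5 to 36.3 CPM with lung content, and from 22.9 to 61.5 and from 146 to 253 CPM with liver content. Their log2FC values were -3.25 ± 0.34 (adjusted p = 1.3e-07) and -2.87 ± 0.20 (adjusted p = 5.6e-10), with no overlap between contents. *Fn1*, which encodes fibronectin, ranged from 736 to 2788 CPM with lung content and from 2490 to 5259 with liver content, with overlap (log2FC -0.89 ± 0.30, adjusted p = 0.013). With scaling by library size alone, which moved the median of all genes to 0.60, 45 genes passed, 43 higher and 2 lower. The remaining glycoproteins were higher with lung content, *Tnc* (tenascin C, abundant in forming tissue) by a log2FC of 2.54 ± 0.33 (adjusted p = 1.9e-06) and *Postn* (periostin) by 1.59 ± 0.27 (adjusted p = 3.5e-05). The ranges of *Postn* overlapped, from 218 to 370 and from 51.1 to 221 CPM.

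**Figure D2:**
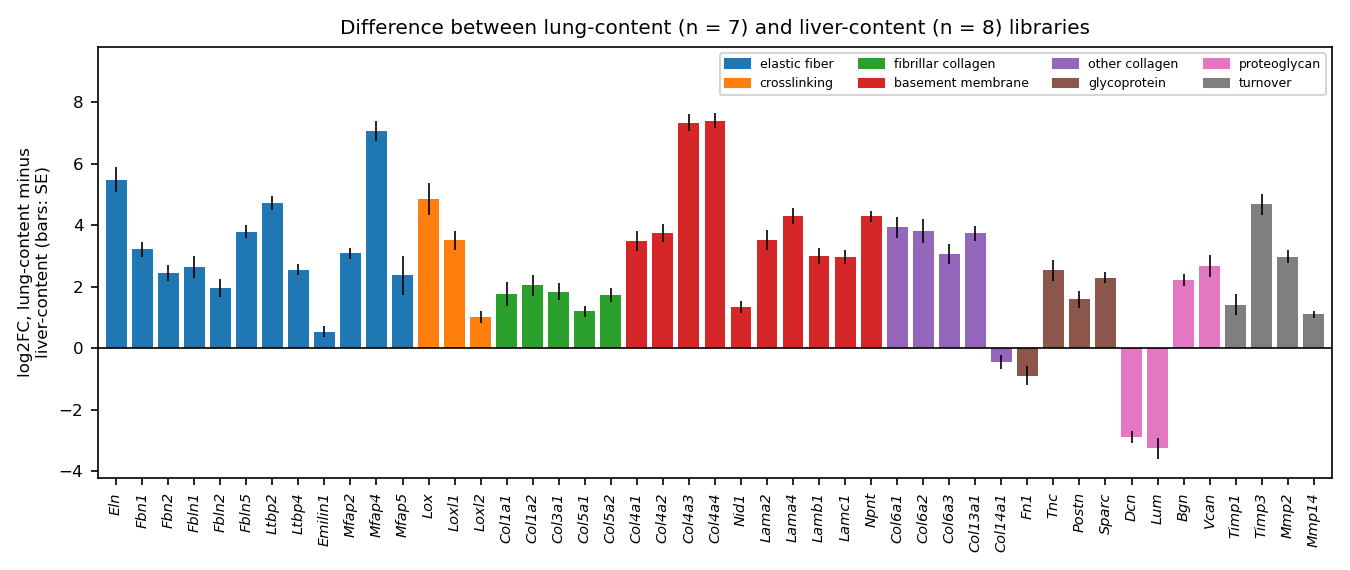
log2FC of each matrix gene between lung-content (n = 7) and liver-content (n = 8) libraries, coloured by role, with the standard error of the edgeR fit as the error bar. *Col4a3*, *Col4a4* and *Mfap4* reach log2FC values above 7, and *Lum*, *Dcn*, *Fn1* and *Col14a1* lie below 0.

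Per kilobase of exon, the order of the matrix messages also differed between contents. With lung content, the highest medians were those of *Mfap4* (586 CPM per kilobase), *Eln* (465), *Col4a1* (412) and *Sparc* (378), a collagen-binding glycoprotein. With liver content, *Fn1* led with 269 CPM per kilobase, against 171 with lung content, and *Sparc* followed with 66.8. *Lum* and *Dcn* had medians of 11.8 and 28.9 CPM per kilobase with liver content and 1.45 and 4.67 with lung content.

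The wider matrix list gave a similar picture with its own exceptions. Of 56 further matrix genes 54 were tested, and 49 passed, 40 higher with lung content and 9 lower, where 75.6% of all genes passed, 36.1% higher and 39.5% lower. The highest were *Matn4*, a matrilin (log2FC 7.49 ± 0.33), and the laminin chains *Lamc3* and *Lama3* (6.504 ± 0.56 and 6.503 ± 0.28). *Lamc3* had at most 0.8745 CPM in the liver-content libraries and no count in that of live heterozygous pups with placebo. The lowest was *Vtn*, the hepatocyte product vitronectin, with a log2FC of -9.41 ± 0.35, followed by *Col18a1*, the source of endostatin (-3.25 ± 0.16), and *Spp1*, osteopontin (-3.20 ± 0.47). The mixed library had 206 CPM of *Vtn*, against 1.24 to 6.59 in the lung-content libraries.

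Read by their labels, the comparisons of NAC with placebo followed content. Each labelled pair is 1 library against 1 library and has no replicate check, and a difference was counted at a fold of at least 2. In the lung pairs, 41 genes were higher and 2 lower with NAC in live WT pups (background 27.5% higher and 28.5% lower), and 42 and 2 in live heterozygous pups (28.4% and 31.9%). In dead heterozygous pups 4 were higher and 41 lower (25.3% and 25.9%), and in dead null pups 3 and 35 (22.1% and 24.9%). The median log2FC of the list was 3.61, 3.35, -2.65 and -1.74 in these pairs. In the liver pairs the medians were -2.13, -3.16, 2.87 and -2.93 in the same order of pup groups, with 4 genes higher and 37 lower (background 24.4% and 25.6%), 3 and 41 (25.1% and 25.3%), 38 and 2 (26.1% and 25.8%), and 2 and 41 (29.1% and 26.7%). In each of the 3 pairs with a median above 0, the NAC library had lung content and the placebo library liver content. In the other 5 pairs the NAC library had liver content and the placebo library lung or mixed content. No labelled pair compared 2 libraries of one content, so treatment and content cannot be told apart within a pair.

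**Figure D3:**
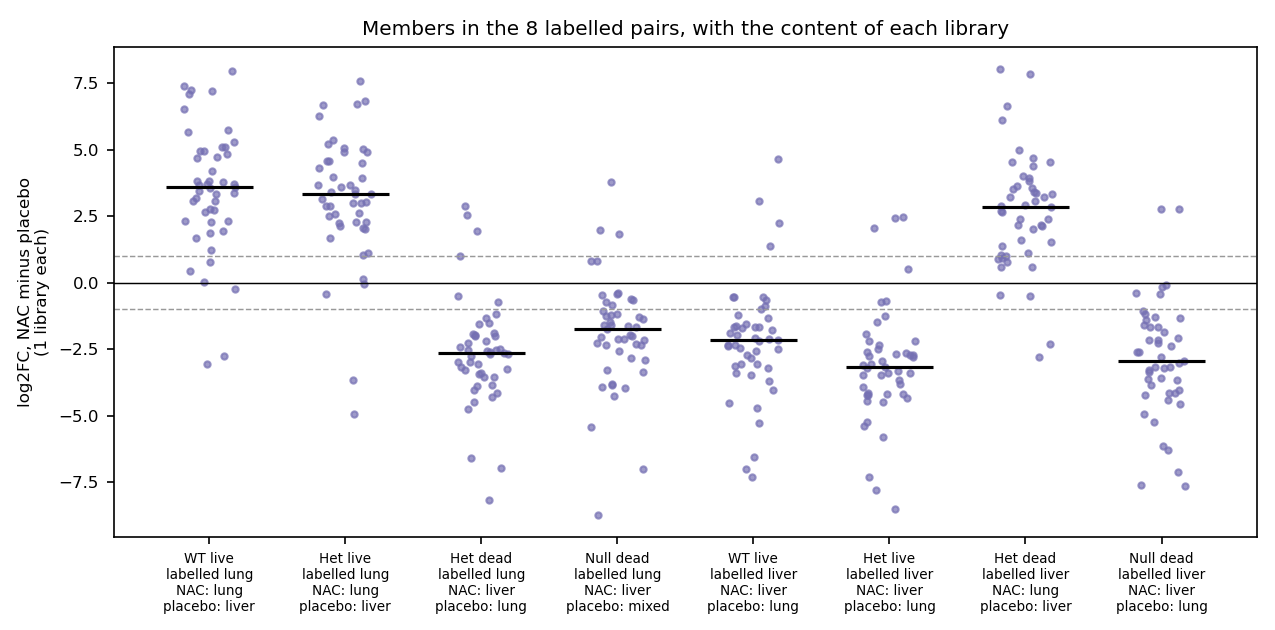
The log2FC of the 47 matrix genes (points) of the NAC over the placebo library in each labelled pair, with the median as a bar, dashed lines at a fold of 2 and the content of each library under the axis. Medians lie at 3.61, 3.35 and 2.87 in the 3 pairs whose NAC library has lung content, and from -3.16 to -1.74 in the other 5.

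Among lung-content libraries, NAC could be compared with placebo within 1 content. Of the 7 libraries 4 are labelled liver, and the 3 labelled lung hold 2 NAC libraries of live pups and 1 placebo library of dead pups, so that with matching labels alone treatment and survival cannot be told apart. With survival as a covariate, 4 of 47 genes passed edgeR's quasi-likelihood test (13.3% of all 13990 genes passed, 7.81% higher and 5.53% lower), and all 4 fell with NAC. They were *Tnc*, *Vcan* (versican, a large proteoglycan of provisional matrix), *Loxl1* and *Col4a3*. *Tnc* had 52.4, 54.0 and 62.5 CPM in the NAC libraries of live WT, live heterozygous and dead heterozygous pups, and 160, 167 and 137 CPM in the placebo libraries of the same pup groups. The placebo library of dead null pups had 63.2 CPM, close to the NAC libraries. The log2FC was -1.22 ± 0.29 (adjusted p = 0.031).

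*Vcan* had 44.6, 35.5 and 20.7 CPM with NAC, 65.3, 77.9 and 61.5 CPM with placebo in the same order, and 28.4 CPM in the dead null placebo library (log2FC -0.94 ± 0.25, adjusted p = 0.043). *Col4a3* had 165, 146 and 179 CPM with NAC, 273, 301 and 253 CPM with placebo, and 202 CPM in the dead null library, so that all 4 placebo libraries lay above the NAC libraries (log2FC -0.66 ± 0.17, adjusted p = 0.039). *Loxl1* had 76.7, 54.0 and 74.0 CPM with NAC, 145, 147 and 117 CPM with placebo and 73.4 CPM in the dead null library (log2FC -0.82 ± 0.23, adjusted p = 0.049). For *Tnc*, *Vcan* and *Loxl1* the dead null placebo library lay within or next to the NAC range. For *Col4a3* it lay between the NAC and the other placebo libraries, nearer to the NAC mean on the log2 scale.

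Several genes with larger differences did not pass in this fit. *Lox* had 998, 565 and 735 CPM with NAC, 196, 156 and 215 CPM with placebo and 743 CPM in the dead null placebo library, and its log2FC of 1.59 ± 0.48 had an adjusted p of 0.057. *Timp3* had 1897, 1295 and 1608 CPM with NAC, 654, 466.4 and 559 CPM with placebo and 1419 CPM in the dead null placebo library (log2FC 1.21 ± 0.35, adjusted p = 0.0502). *Col4a1* had 4554, 3529 and 3355 CPM with NAC, 1719, 1315 and 1296 CPM with placebo and 3072 CPM in the dead null placebo library (log2FC 1.11 ± 0.33, adjusted p = 0.053). In each of these genes the NAC libraries and the dead null placebo library stood together, above the other placebo libraries by a wide gap. The same held for *Fn1*, with 2495, 1996 and 2777 CPM, 1116, 736 and 821 CPM and 2788 CPM (log2FC 1.03 ± 0.39, adjusted p = 0.10), and for *Eln* (log2FC 0.84 ± 0.29, adjusted p = 0.081).

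The count therefore turned on that library. Without the dead null placebo library, 23 of 47 genes passed, 14 higher and 9 lower with NAC, where 29.2% of all genes did. With pup group as a block, where a library alone in its pup group does not bear on the NAC coefficient, 21 passed, 13 higher and 8 lower (25.6% of all genes). Without that library, the log2FC was 2.04 for *Lox* (adjusted p = 8.6e-04), 1.53 for *Timp3* (0.0014), 1.41 for *Col4a1* (0.0013), 1.45 for *Fn1* (0.0021), 1.04 for *Eln* (0.0050) and -1.44 for *Tnc* (5.9e-04) by the same test. By contrast, no gene passed when the live heterozygous NAC library, the dead heterozygous placebo library, or the live WT or live heterozygous placebo library was left out, 1 passed without the live WT NAC library, and 9 without the dead heterozygous NAC library. DESeq2 called 15 genes, 8 higher and 7 lower. For these further settings the share of all genes called is not given here, so their counts cannot be set against the background.

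**Figure D4:**
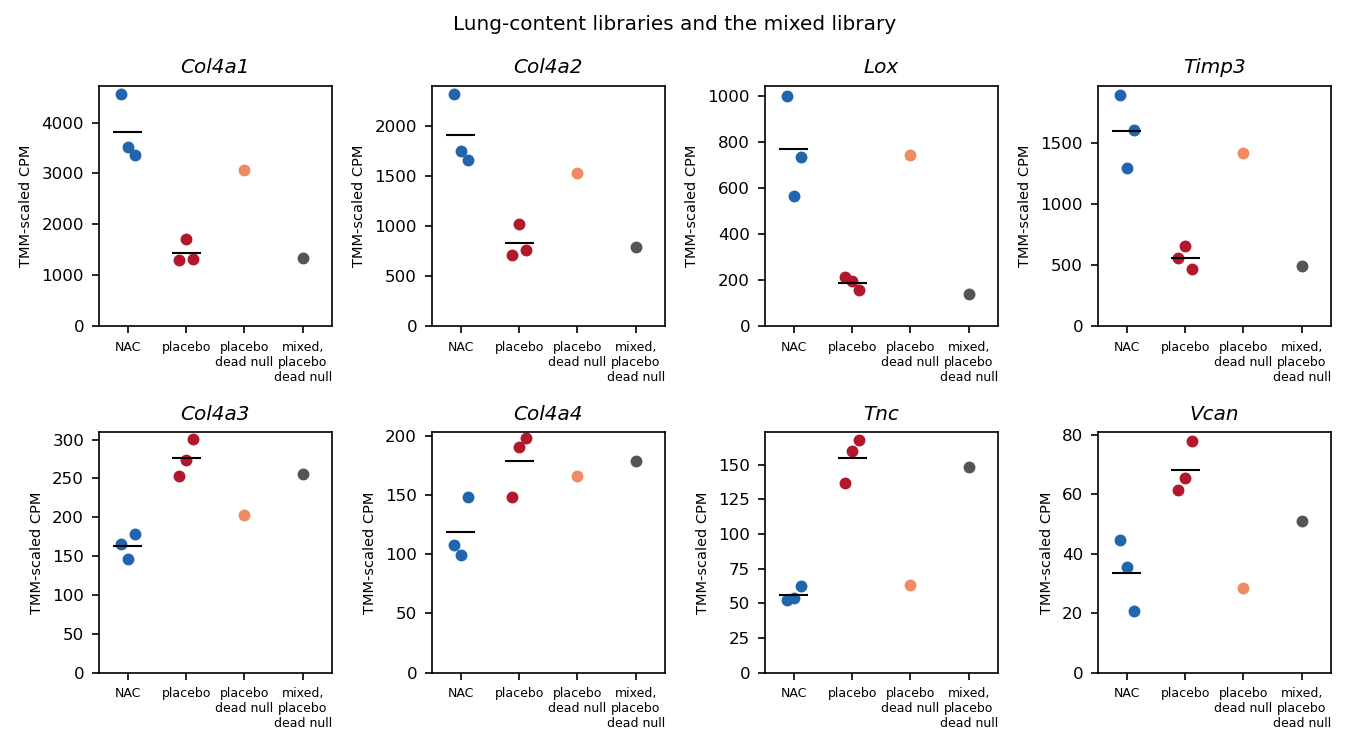
Level of 8 matrix genes (TMM-scaled CPM, axes from 0) in the NAC libraries (n = 3) and placebo libraries (n = 3) of live WT, live heterozygous and dead heterozygous pups with lung content, in the lung-content placebo library of dead null pups and in the mixed placebo library of dead null pups; bars are means. For *Col4a1*, *Lox*, *Timp3* and *Tnc* the lung-content dead null library sits with the NAC libraries and the mixed one with the placebo libraries.

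Set against the 3 placebo libraries of the matching pup groups, a choice made after the values were seen, all NAC libraries lay above for 15 genes (23.2% of all genes) and below for 10 (25.4%), and the ranges overlapped for 22. The lung-content dead null placebo library was nearer on the log2 scale to the NAC mean for 24 of these 25 genes. Nearness to either mean was counted for the list alone and not over all genes, so it does not set the list apart. The mixed library, which carries the same pup group and treatment and the label lung, was nearer to the placebo mean for 23 of the 25. Its levels were 141 CPM of *Lox*, 490 of *Timp3*, 1332 of *Col4a1* and 148 of *Tnc*. Against all 4 placebo libraries, NAC lay above for *Ltbp4*, *Col4a1*, *Col4a2*, *Nid1* and *Col14a1* (14.3% of all genes) and below for *Col4a3* and *Tnc* (15.1%). Some marker lists of other cell types divided the libraries in the same way. The 6 smooth muscle markers summed to 296, 249.02 and 370 CPM in the NAC libraries and 301 CPM in the dead null placebo library, and to 532, 508 and 618 CPM in the other placebo libraries. The sum of the 4 mesothelial markers ran the other way, with 413, 376 and 479 CPM with NAC, 565 CPM in the dead null placebo library and 360, 343 and 323 CPM in the other placebo libraries. Their median log2(CPM + 1) overlapped, with 5.54, 5.60 and 6.08 with NAC and 6.01, 6.02 and 5.80 in the other placebo libraries. The sum of the 4 sinusoidal endothelial markers was likewise higher with NAC, with 520, 541 and 344 CPM, 441 CPM, and 299, 287 and 319 CPM. Their median log2(CPM + 1) was low, from 1.04 to 2.22 with lung content, against 5.42 to 6.42 with liver content. Most of these markers thus added little to the sum with lung content, which is no measure of sinusoidal cells there. The sums of the fibroblast, endothelial and alveolar type 1 markers overlapped between the NAC libraries and the other placebo libraries. The median log2(CPM + 1) of the fibroblast markers did not overlap and was lower with NAC. It was 4.85, 3.97 and 4.90 with NAC, 5.12 in the dead null placebo library and 5.53, 5.58 and 5.46 in the other placebo libraries. For the endothelial and alveolar type 1 markers this median overlapped as well. The part of any of these cell types in the differences was not tested.

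By role, the differences without the dead null placebo library ran in both directions. Basement membrane genes with higher levels included *Col4a1*, *Col4a2*, *Lamc1*, *Lama2*, *Lama4*, *Lamb1* and *Nid1*, whereas *Col4a3* and *Col4a4* were lower (log2FC -0.74 and -0.59, adjusted p = 0.0066 and 0.043 by edgeR). Of the crosslinking enzymes *Lox* was higher, and *Loxl1* and *Loxl2* were lower. Of the elastic fiber genes *Eln* and *Ltbp4*, a latent TGF-beta binding protein, were higher, and *Fbln2*, *Fbln5* and *Mfap5* lower. None of the 5 fibrillar chains passed, with log2FC values of 0.33 for *Col1a1* and -0.03 for *Col3a1*. In the fit over all 7 libraries, *Col1a1* had a log2FC of 0.28, *Col3a1* 0.02, *Fbn1* 0.32, *Postn* -0.23, *Timp1* -0.11 and *Mmp2* -0.06, and none of them passed. Of the further matrix genes, 8 of 54 passed in that fit, 5 higher and 3 lower with NAC, close to the 13.3% of all genes that passed, led by the metalloproteinase gene *Adamts1* (log2FC 2.13 ± 0.31, adjusted p = 0.018) and by *Spp1* (-2.14 ± 0.56, adjusted p = 0.040).

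The 4 collagen IV chains on the list are coded as 2 head-to-head gene pairs, which had log2FC values of opposite sign with NAC. *Col4a1* (minus strand, chromosome 8, start at 11312826 on GRCm38) and *Col4a2* (plus strand, start at 11312805) overlap at their first exons by 22 bases. Their log2FC values were 1.11 and 0.96, and neither passed. *Col4a4* (minus strand, chromosome 1, start at 82586849) and *Col4a3* (plus strand, start at 82586921) are separated by 71 bases, and their log2FC values were -0.66 for *Col4a3*, which passed, and -0.56 for *Col4a4*, which did not (adjusted p = 0.075 by edgeR). Since the strand setting of the counting is not given in the sources used here, reads on the overlap of *Col4a1* and *Col4a2* cannot be assigned to 1 gene. The same holds for the exon bases that *Col4a3*, *Eln*, *Fn1*, *Lox*, *Mfap4*, *Timp3* and *Tnc* share with a gene annotated on the other strand. The stretch between the *Col4a4* and *Col4a3* starts and the 250 bases before the starts of *Tnc* and *Vcan* are shown because *Col4a3*, *Tnc* and *Vcan* passed in this comparison. The bases are those of RefSeq promoter windows (GRCm38.p6), for *Col4a3* that of its neighbour *Col4a4*, and hold no annotated exon. Capitals mark the TATA box letters TATAAA, the CCAAT box letters CCAAT and the GC box letters GGGCGG, read on either strand.
Between Col4a4 and Col4a3 (chr1:82586850-82586920, plus strand): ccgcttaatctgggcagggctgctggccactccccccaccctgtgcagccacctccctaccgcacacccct
Tnc (chr4:64047016-64047265, minus strand): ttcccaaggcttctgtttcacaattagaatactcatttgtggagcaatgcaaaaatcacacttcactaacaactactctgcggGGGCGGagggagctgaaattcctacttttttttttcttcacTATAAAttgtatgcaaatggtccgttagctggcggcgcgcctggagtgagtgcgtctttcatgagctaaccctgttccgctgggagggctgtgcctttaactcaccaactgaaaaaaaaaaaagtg
Vcan (chr13:89742513-89742762, minus strand): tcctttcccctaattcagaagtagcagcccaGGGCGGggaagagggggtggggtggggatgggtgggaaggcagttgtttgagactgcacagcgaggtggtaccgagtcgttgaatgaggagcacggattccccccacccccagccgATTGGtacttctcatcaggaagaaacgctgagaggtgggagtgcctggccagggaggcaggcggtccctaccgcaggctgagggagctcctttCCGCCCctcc
A window of 300 bases (250 before and 50 after the start) was at hand for 30 of the 47 genes. On either strand, TATAAA was found in 3 of the 30 (10%, against 14.2% of 27025 windows of all genes), CCAAT in 12 (40%, against 37.9%) and GGGCGG in 21 (70%, against 35.9%). *Tnc* held TATAAA and GGGCGG, *Vcan* CCAAT and GGGCGG, and the stretch between *Col4a4* and *Col4a3* none of the 3. These matches describe letters in the windows and were not tied to any difference in level.

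In liver-content libraries, no matrix gene passed for NAC against placebo (0 of 46 tested by edgeR, background 0%, and 0 by DESeq2), and 7 had an unadjusted p under 0.05, all higher with NAC (15.2% of the list, against 2.00% of all genes). *Col4a4* was too low to be tested there. The median log2FC of the list was 0.47, against 0.023 over all genes. Both dead null libraries had NAC and no placebo library was of null pups, so genotype was not balanced between treatments. With pup group as a block, the median was 0.39, against 0.0049 over all genes. *Eln* had 138, 47.1, 83.1, 153 and 55.6 CPM in the NAC libraries (WT, then heterozygous live and dead pups, then the dead null libraries labelled lung and liver) and 40.2, 35.1 and 54.2 CPM in the placebo libraries of the first 3 pup groups (log2FC 1.12 ± 0.44). *Col1a1* had 243, 58.4, 99.7, 307 and 96.8 CPM with NAC and 47.3, 39.2 and 118 CPM with placebo (log2FC 1.24). In both genes 2 NAC libraries, that of live WT pups and that of dead null pups labelled lung, stood above the rest. Others of the named genes had log2FC values of 0.62 for *Fbn1*, 0.92 for *Col3a1* and *Tnc*, 0.54 for *Mmp2*, 0.28 for *Postn*, 0.19 for *Fn1*, 0.07 for *Col4a1*, -0.09 for *Col4a3* and -0.17 for *Timp1*.

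These 2 libraries also had the highest sums of the 5 skeletal muscle markers. The sums were 917 CPM in the live WT NAC library and 764 in the dead null NAC library labelled lung, 345 and 120 in the dead heterozygous NAC and placebo libraries, and from 5.58 to 31.9 in the other 4. The 5 cartilage markers summed to 357 CPM in the dead null NAC library labelled lung and to at most 8.14 in the other liver-content libraries. Without the 4 libraries with the highest muscle sums, the median log2FC of the list for NAC was 0.19. Of the dead pups, only the null NAC library labelled liver remained in that fit, and the survival covariate takes it up. The value thus rests on the live heterozygous NAC library against the placebo libraries of live WT and live heterozygous pups. With only the live WT NAC library left out, the median was 0.15. The part of these cell types in the matrix levels was not tested. The standard deviation of *Col1a1* over libraries was 1.06 on the log2 scale with liver content and 0.29 with lung content. For *Mfap5*, the most variable gene of the list with liver content, it was 2.15 and 0.83, and for *Col4a1* the order was reversed, with 0.55 and 0.74.

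**Figure D5:**
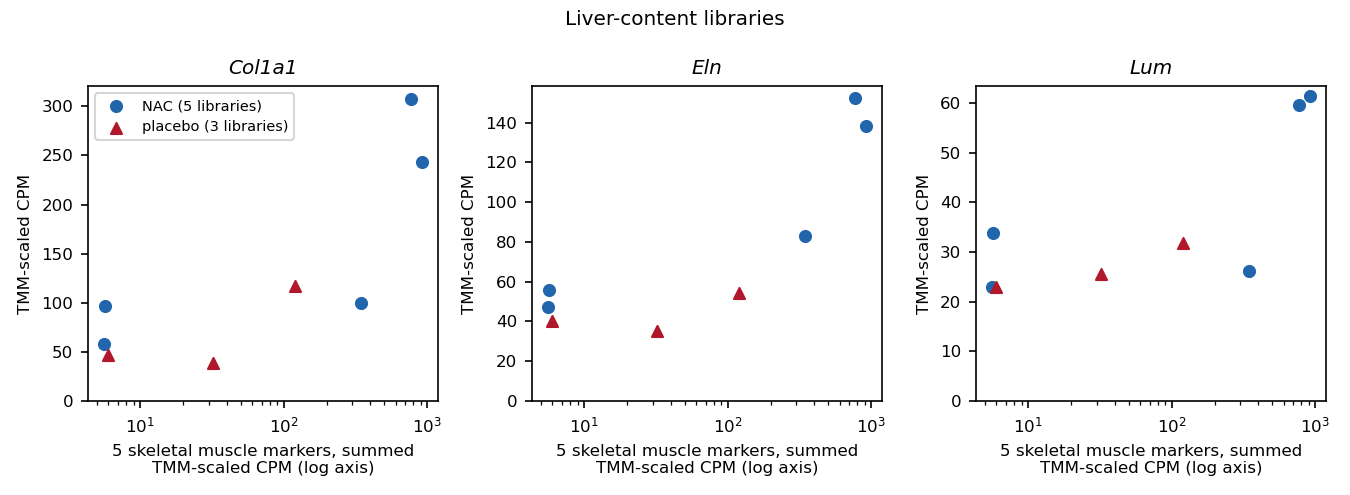
Level of *Col1a1*, *Eln* and *Lum* (TMM-scaled CPM, axes from 0) against the summed level of 5 skeletal muscle markers (log axis) in the 8 liver-content libraries, with NAC libraries as circles and placebo libraries as triangles. The 2 libraries with marker sums of 764 and 917 CPM hold the highest *Eln* (153 and 138), *Col1a1* (307 and 243) and *Lum* (59.7 and 61.5).

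The difference between the NAC effects in the 2 contents was tested as an interaction, a test added after the data were seen. No matrix gene passed in edgeR (0 of 47, background 0%), and 11 had an unadjusted p under 0.05 (23.4% of the list, against 13.8% of all genes). The smallest adjusted p was 0.16, for *Tnc*, whose NAC effect in lung-content minus that in liver-content libraries was -2.14 ± 0.45 on the log2 scale.

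No gene of the list passed for dead against live pups. All null libraries were of dead pups and all WT libraries of live pups. The fit held treatment but no genotype term, so its survival term also carries genotype. Among lung-content libraries (3 dead and 4 live), 0 of 47 genes passed in edgeR (background 0%) and 0 in DESeq2, and 2 had an unadjusted p under 0.05, *Vcan* (log2FC -0.78 ± 0.25) and *Fbln2* (-0.58 ± 0.25), a share of 4.26%, near the 3.62% of all genes. The values were 0.23 for *Eln*, -0.20 for *Fbn1*, -0.09 for *Col1a1*, -0.04 for *Col3a1*, 0.22 for *Col4a1*, -0.11 for *Col4a3*, 0.71 for *Fn1*, -0.34 for *Postn*, -0.32 for *Tnc*, 0.04 for *Timp1* and -0.17 for *Mmp2*. Among liver-content libraries (4 dead and 4 live), 0 of 46 passed in both tools (background 0%), and 3 had an unadjusted p under 0.05, all higher in dead pups, *Timp1* (log2FC 1.22 ± 0.52), *Lama2* (0.83 ± 0.33) and *Npnt* (0.52 ± 0.19), a share of 6.52%, near the 5.40% of all genes. *Timp1* had 4.26 and 2.86 CPM in the dead null NAC library labelled lung and the dead heterozygous placebo library, and from 0.931 to 1.19 in the other 6. Here *Eln* had a log2FC of 0.25, *Fbn1* 0.38, *Col1a1* 0.65, *Col3a1* 0.37, *Col4a1* 0.49, *Col4a3* 0.03, *Fn1* -0.07, *Postn* 0.81, *Tnc* -0.58 and *Mmp2* 0.35. The interaction of content and survival called 0 of the 47 genes in edgeR (0.00705% of all genes), with 4 at an unadjusted p under 0.05 (8.51% of the list, against 4.59% of all genes).

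Heterozygous pups that lived were set against WT pups in a fit with treatment and all pup groups, and no gene passed. In lung-content libraries (2 of each), 0 of 47 genes passed in edgeR (background 0%) and 0 in DESeq2, and 9 had an unadjusted p under 0.05, all lower in heterozygous pups (19.1% of the list, against 2.21% of all genes). Among them were *Timp3* (log2FC -0.50 ± 0.15), *Lox* (-0.57 ± 0.19), *Fn1* (-0.45 ± 0.18), *Col4a2* (-0.40 ± 0.15) and *Col4a1* (-0.36 ± 0.14), and only 6 of the 47 genes had a log2FC above 0. The list's median log2FC was -0.17, against -0.0025 over all genes. *Eln* had -0.36, *Fbn1* -0.18, *Col1a1* -0.30, *Col3a1* -0.07, *Col4a3* 0.01, *Postn* 0.03, *Tnc* 0.08, *Timp1* 0.15 and *Mmp2* -0.15. In liver-content libraries (2 of each), 0 of 46 passed in both tools (background 0%), and 2 had an unadjusted p under 0.05, *Fbln1* (-1.71 ± 0.68) and *Lama4* (-0.85 ± 0.33), a share of 4.35%, against 1.59% of all genes. The list's median log2FC was -0.60 there, against 0.0063 over all genes, with 1 of 46 genes above 0. Without the live WT NAC library, whose muscle marker sum was 917 CPM, the median was 0.090. *Col1a1* had a log2FC of -1.35, *Eln* -0.93, *Col3a1* -0.81, *Tnc* -0.73, *Postn* -0.62, *Col4a1* -0.59, *Col4a3* -0.52, *Fn1* -0.48, *Fbn1* -0.40, *Timp1* -0.23 and *Mmp2* -0.12.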

How the data were processed

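Polyadenylated RNA was sequenced from 16 pooled libraries. The authors trimmed reads, aligned them to GRCm38 with the Omicsoft aligner and deposited estimated counts per gene symbol without normalization, of which 6.50% to 8.24% per library were not whole. These were rounded. The submitters' processing notes name R 4.0.3 and edgeR 3.30.3. The library kit was stranded, but whether counting used strand is not given in the sources used here, and the reads of overlapping genes may be divided in ways not stated. Libraries held 7236865 to 16107749 counts, which sets the precision of low genes.

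Libraries were grouped by label into pup group and treatment, and by content (*Sftpc* at least 1000 and *Alb* under 1000 raw CPM for lung, *Alb* at least 50000 for liver, otherwise mixed). The mixed library entered no test. Tests covered genes that averaged 1 CPM or more and were made by edgeR 4.0.16's quasi-likelihood test with TMM factors (R 4.3.3), with survival or treatment as covariate, or pup group and treatment for live heterozygous against live WT, and Benjamini-Hochberg adjustment over all genes tested, called under 0.05. SE is the absolute log2FC over the root of F. Labelled pairs used a prior count of 0.125 and an absolute log2FC of at least 1, without a test. The members, lists and tests were chosen with earlier results of these data known. Named genes were the 3 called members with the largest change each way, 11 fixed genes (*Eln*, *Fbn1*, *Col1a1*, *Col3a1*, *Col4a1*, *Col4a3*, *Fn1*, *Postn*, *Tnc*, *Timp1* and *Mmp2*), the 3 leading further matrix genes each way and the markers, and others named beside them were chosen after their values were seen. Replicates are libraries of different pup groups or treatments, so p-values measure the spread between these pools. The exceptions are the dead null NAC libraries labelled lung and liver, which both had liver content and were entered as separate replicates. Whether these came from the same pups is not given in the sources used here. No pair of libraries agreed within sampling noise. Alternatives were other scalings, filters, DESeq2 1.42.0, other covariates, edgeR's exact test at a coefficient of variation of 0.2 and leaving out each library. The steps were tested on simulated data. Gene positions are from GENCODE on GRCm38.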

Additional observations from a re-analysis of the deposited data

Results flagged for a closer look

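Each matrix gene was checked for a library far from the others within the 7 lung-content and within the 8 liver-content libraries, by the gap to its neighbour over the whole range. Of 94 such sets 7 held one, where chance gives about 5%. In lung-content libraries it was *Npnt*, highest in live WT pups with NAC (gap over range 0.674). In liver-content libraries the live WT NAC library was the highest for *Loxl2* (0.731), *Lamb1* (0.607) and *Tnc* (0.624), and the dead null NAC library labelled lung for *Mfap2* (0.533) and *Postn* (0.527). The dead heterozygous placebo library was the highest for *Npnt* (0.677). Among liver-content libraries, that of live WT pups with NAC and that of dead null pups with NAC labelled lung were also those with the highest skeletal muscle marker sums, 917 and 764 CPM.

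By label, the NAC effect on the list differed in sign between pup groups. In lung pairs the median log2FC was 3.61 in live WT and 3.35 in live heterozygous pups, but -2.65 in dead heterozygous and -1.74 in dead null pups. In liver pairs it was 2.87 in dead heterozygous and -2.93 in dead null pups. With 1 library on each side, these differences were not tested, and in every pair the sign was that of the change in content.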

How the results depend on the processing

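The count for content stayed between 44 and 47 under all alternatives, and the 0 counts for NAC with liver content and, with either content, for dead against live and live heterozygous against live WT pups stayed 0. The interactions were fitted under 1 setting each. For NAC in lung-content libraries, 4 genes passed, against 14 with no filter on low counts, 15 with DESeq2, 21 with pup group as block, 7 with no covariate and from 0 to 23 when 1 library was left out. The share of all genes called moved as well, from 13.3% to 25.6% with the block and 29.2% without the dead null placebo library. It is not given here for the other settings. The cause was not tested. The calls of *Tnc*, *Vcan*, *Loxl1* and *Col4a3* depend on which libraries enter.

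Named genes changed sign as follows (log2FC), none of them called in the comparison named. For NAC in lung-content libraries, *Col3a1* was -0.19 with library size alone, -0.055 with a mean of at least 10 CPM and -0.039 with pup group as block, and on leaving out libraries *Col3a1* ranged from -0.29 to 0.11, *Timp1* from -0.28 to 0.12 and *Mmp2* from -0.34 to 0.082. For NAC in liver-content libraries, *Col4a3* was 0.17 with the block, *Postn* -0.27 without the libraries with muscle markers (added after seeing the data) and *Timp1* 0.079 with no covariate, with ranges of -0.29 to 0.72 for *Col4a1*, -0.55 to 0.24 for *Col4a3*, -0.089 to 0.60 for *Fn1*, -0.11 to 0.49 for *Postn* and -0.61 to 0.046 for *Timp1*. For dead against live with lung content, *Eln* and *Col4a1* were -0.023 and -0.11 with no covariate and *Timp1* -0.010 with library size alone, with ranges of -0.10 to 0.55 for *Eln*, -0.34 to 0.12 for *Fbn1*, -0.31 to 0.077 for *Col1a1*, -0.35 to 0.050 for *Col3a1*, -0.25 to 0.53 for *Col4a1*, -0.33 to 0.010 for *Col4a3* and -0.30 to 0.30 for *Timp1*. With liver content, *Tnc* was 0.088 without the libraries with muscle markers. That value sets the dead null NAC library against the live heterozygous NAC library alone. The *Postn* value for NAC in that subset likewise rests on this live NAC library on the NAC side. The ranges were -0.030 to 0.82 for *Eln*, -0.028 to 0.93 for *Col4a1*, -0.24 to 0.55 for *Col4a3* and -0.40 to 0.26 for *Fn1*. For live heterozygous against live WT pups with lung content, *Col4a3*, *Tnc*, *Postn* and *Timp1* were -0.31, -0.25, -0.30 and -0.18 with library size alone, and *Col4a3* -0.0086 with no filter and -0.0025 with a mean of at least 10 CPM, with ranges of -0.49 to 0.16 for *Fbn1*, -0.28 to 0.13 for *Col3a1*, -0.23 to 0.21 for *Col4a3*, -0.071 to 0.19 for *Tnc*, -0.088 to 0.13 for *Postn*, -0.078 to 0.39 for *Timp1* and -0.43 to 0.16 for *Mmp2*. With liver content the ranges were -1.06 to 0.40 for *Fbn1*, -1.53 to 0.059 for *Col3a1*, -1.21 to 0.24 for *Col4a1*, -1.22 to 0.12 for *Col4a3*, -0.89 to 0.015 for *Fn1*, -1.30 to 0.22 for *Postn*, -0.67 to 0.17 for *Timp1* and -0.75 to 0.64 for *Mmp2*. Depth limits the genes near 1 CPM, such as *Col4a3*, *Col4a4* and *Mfap5* with liver content.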
